A study of Mus musculus with 8 samples.

Results

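Simple epithelia are single layers of polarised cells. Their cytoskeleton is built from paired keratins (a type II chain, Krt7 or Krt8, with a type I chain, Krt18 or Krt19), and neighbouring cells are sealed by tight junctions whose strands are made of claudins. Epcam is a surface adhesion protein of such cells that binds claudin-7, and the grainyhead factor Grhl2 is a transcription factor known to switch on junction genes such as Cldn4 and Cdh1. In the embryo these genes mark trophectoderm, endoderm and surface ectoderm, and embryonic stem cells express several of them, whereas neuroepithelium gives up Epcam and keratins as it matures into radial glia.

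The 10 genes described here are the keratins Krt7, Krt8, Krt18 and Krt19, the claudins Cldn3, Cldn4, Cldn6 and Cldn7, Epcam and Grhl2. They were taken by name, as every probe that is not a control and whose gene name in the scanner files is on that list. This gave 13 probes for the 10 genes, with 2 probes each for Krt8, Cldn4 and Grhl2, and all 13 were well above background on all 8 arrays. No further probe joined the set when names were updated through RefSeq accessions. The whole comparison tested 21749 genes.

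The study followed mouse embryonic stem cells into neural progenitors, and its samples, labelled RGC-like NPC, were taken on day 6 of induction and hybridised to 8 single-colour Agilent arrays. The control group is 4 arrays of cells with a control short hairpin RNA, and the Zrf1 KD group is 4 arrays of cells whose hairpin targets Zrf1 (Dnajc2 in current annotation), a J-domain chaperone of the ribosome that is also found on chromatin. The labels do not name the stem cell line, the number of hairpins or clones, or the number of separate cultures. The names of the knockdown files carry only 2 numbers, each on 2 arrays (knockdown 1 with 2, and 3 with 4), and those of knockdown 2 and 4 add the tag TR, whose meaning is not given. If it marks technical repeats, the knockdown group holds 2 independent samples and not 4. The 4 arrays are treated as n = 4 here, so p-values measure only the spread between arrays. With each pair averaged into 1 sample, 7 of the 10 genes were called higher and Epcam was not. In that fit 10939 of all genes were called, 49.5% of them higher.

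Each level is a log2 signal minus the 75th percentile of its own array (0 is that percentile), so levels of different probes are not compared with each other. Changes are knockdown minus control, tested with limma at a Benjamini-Hochberg adjusted p under 0.05 over all genes tested, and groups are given as mean ± SD (n = 4). Of all non-control spots, 53.4% to 60.3% were well above background. Dnajc2 itself fell by 4.19 (SE 0.12, limma adjusted p = 1.14e-07). With this test 29.3% of all genes were called higher and 28.7% lower, so a call by itself says little about any gene here, and the size of a change and its rank among all genes are given beside it.

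The array reads each gene through probes of 60 bases. Krt19 had the largest rise of the set, and its possible type II partner Krt7 was not called. For Krt8, Cldn4 and Grhl2 a second probe reads another stretch of the gene, from the same RNA on the same arrays. The probes printed here, 5′ to 3′, are those of Krt19 and Krt7 and a single probe each for Krt8, Cldn4 and Grhl2. They lie, on mouse build mm9, at chr11:100002392-100002451 (minus strand) for Krt19, chr15:101253718-101253777 (plus) for Krt7, chr15:101828827-101828886 (minus) for Krt8, chr5:135422135-135422194 (minus) for Cldn4 and chr15:37239426-37239485 (plus) for Grhl2.
Krt19 probe A_51_P356642: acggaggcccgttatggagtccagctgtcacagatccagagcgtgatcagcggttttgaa
Krt7 probe A_52_P410685: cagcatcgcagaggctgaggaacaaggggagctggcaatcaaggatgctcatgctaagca
Krt8 probe A_55_P2128501: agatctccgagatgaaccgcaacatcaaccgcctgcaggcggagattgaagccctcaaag
Cldn4 probe A_55_P2183453: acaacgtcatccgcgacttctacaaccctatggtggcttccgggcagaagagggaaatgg
Grhl2 probe A_51_P408821: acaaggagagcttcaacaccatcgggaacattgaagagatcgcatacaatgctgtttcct

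Zrf1 knockdown came with higher levels of most of these epithelial genes. Of the 10 genes, 8 were called higher, none was called lower, and 2 (Krt7 and Cldn3) were not called, against 29.3% of all genes higher. The list was chosen with earlier results of these data known, so the count describes these genes and does not test the list. The rises ran from 1.34-fold for Grhl2 to 3.99-fold for Krt19, and the median change of the 10 genes was 0.69 where that of all genes was 0.04. For the same 8 genes all 4 knockdown arrays lay above all 4 control arrays, which held for 27.7% of all genes. By probe, 10 of the 13 were called higher, against 29% of all probes called higher and 28.1% called lower. The groups overlapped for the probes of Krt7 and Cldn3 and for the Grhl2 probe A_51_P408821. The share of all probes without overlap was not computed.

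**Figure D1:**
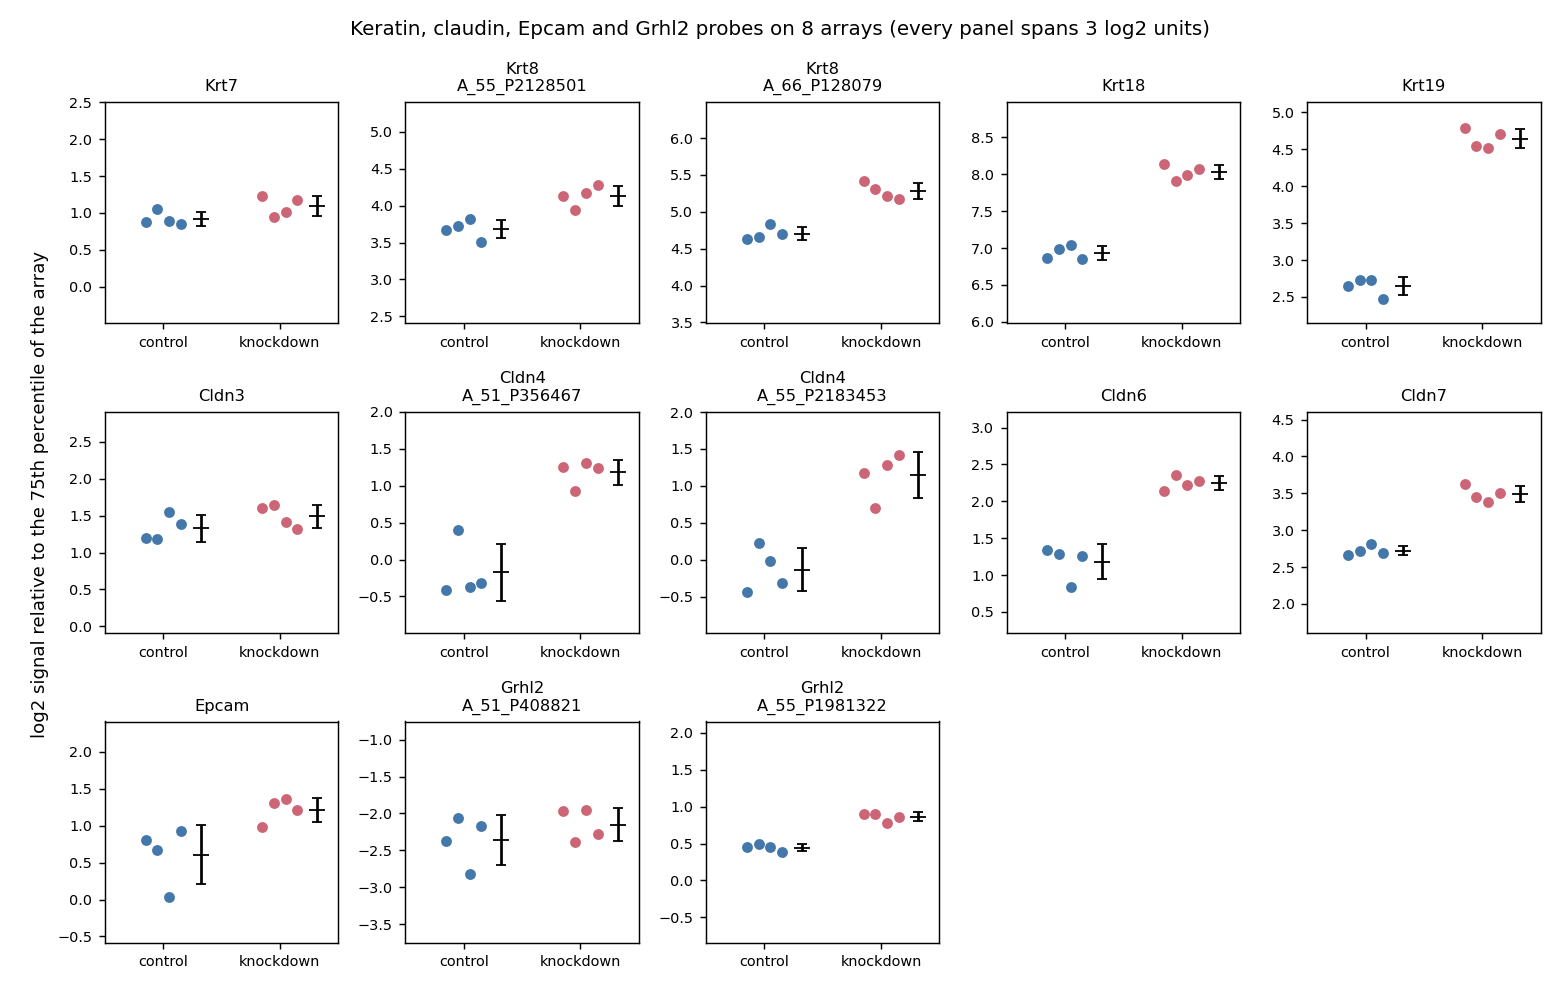
Level of each of the 13 probes (y axis, log2 signal relative to the 75th percentile of the array) on the 4 control arrays (blue) and the 4 knockdown arrays (red), with replicates 1 to 4 from left to right and the mean ± SD in black. Krt19 moves from between 2.48 and 2.74 to between 4.52 and 4.79, while the groups overlap for Krt7, Cldn3 and the Grhl2 probe A_51_P408821.

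Among the keratins of the set, the type I chains rose more than the type II chains. Krt19, the smallest keratin and a marker of ductal and other simple epithelia, had levels of 2.65, 2.72, 2.74 and 2.48 on control arrays 1 to 4 and of 4.79, 4.54, 4.52 and 4.71 on knockdown arrays 1 to 4. The groups were far apart, with no overlap. The mean went from 2.65 ± 0.12 to 4.64 ± 0.13, a change of 2.00 (SE 0.09, limma adjusted p = 8.18e-07), and 2.46% of all genes rose by more.

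Krt18, the type I keratin that pairs with Krt8, is among the first keratins made in the embryo. Its levels were 6.86, 6.99, 7.04 and 6.85 in control and 8.13, 7.92, 8.0 and 8.07 in knockdown, with no overlap. It rose 2.13-fold (change 1.09, SE 0.08, limma adjusted p = 6.51e-06). The probe (chr15:101862341-101862400, mm9) was bright in both groups, with processed intensities between 70548 and 87905 in control and between 135713 and 167996 in knockdown, and no spot was saturated.

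Krt8, the type II partner of Krt18, rose less. Its brighter probe, A_66_P128079, read 4.63, 4.65, 4.83 and 4.70 in control and 5.42, 5.31, 5.22 and 5.17 in knockdown. That is a change of 0.58 (SE 0.08, 1.49-fold, limma adjusted p = 0.000326). Its other probe, A_55_P2128501, read 3.68, 3.73, 3.81 and 3.51 in control and 4.13, 3.94, 4.18 and 4.28 in knockdown, a change of 0.45 (SE 0.10, limma adjusted p = 0.00418 over all probes). Both probes separated the groups, and the intervals of their changes overlapped (0.39 to 0.76 and 0.23 to 0.67).

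Krt7, the other type II chain of the set, is typical of ducts and of trophoblast. Its control arrays read 0.88, 1.05, 0.90 and 0.85 and its knockdown arrays 1.23, 0.95, 1.01 and 1.18, so the groups overlapped. The change of 0.17 (SE 0.09, limma adjusted p = 0.121) did not pass the test, with a 95% interval from -0.03 to 0.37, which leaves room for a rise of up to 1.29-fold. In the authors' deposited log2 values, tested the same way, Krt7 was called higher with a change of 0.22 (limma adjusted p = 0.0293).

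The unequal rise of possible partners was measured within each array, as the log2 signal of a gene minus that of another. The value of such a difference depends on the probes and is not a ratio of transcripts. Its shift between groups is unchanged by a single scaling factor per array, but not by other changes of processing. The Krt8 minus Krt18 difference lay between -2.34 and -2.15 in control and between -2.90 and -2.61 in knockdown, a shift of -0.52. Over 20 alternative settings that shift was -0.58 to -0.36. The Krt7 minus Krt19 difference shifted from -1.73 ± 0.09 to -3.55 ± 0.04, so Krt19 gained 3.54-fold over Krt7. Krt19 also gained on Krt18, by 0.90. None of these 3 pairs overlapped between the groups. Each reached the smallest two-sided p that an exact permutation test of 4 against 4 arrays can give (0.0286, or 0.0429 after Benjamini-Hochberg adjustment over the 6 pairs tested).

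**Figure D2:**
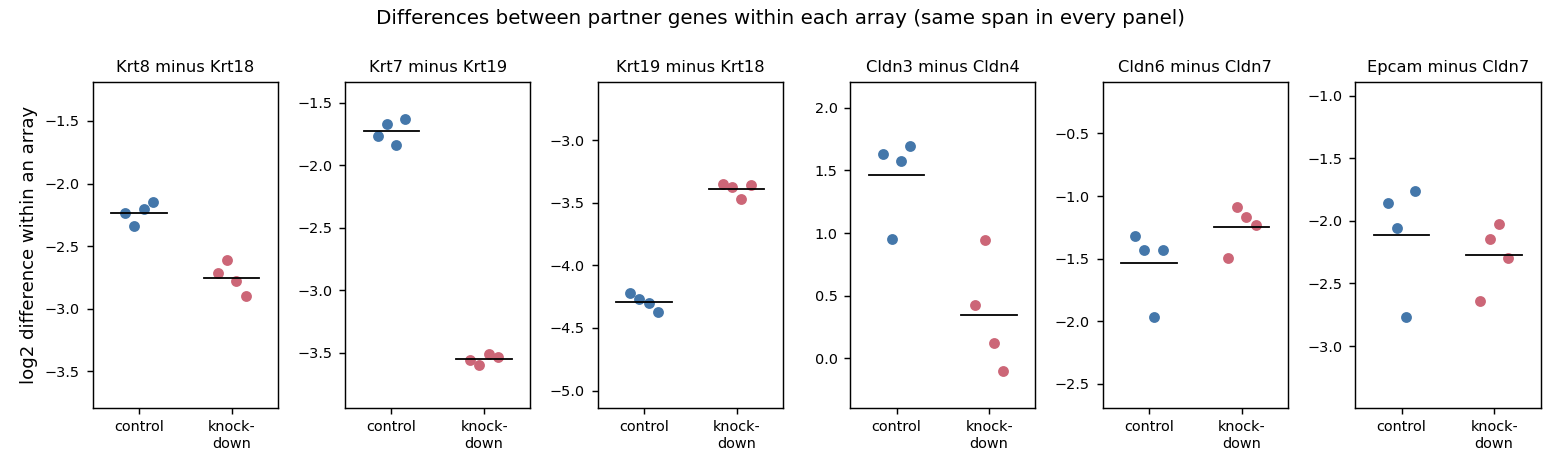
Log2 difference between the signals of 2 genes within each array (y axis) for the 6 pairs tested, with control arrays in blue, knockdown arrays in red and the group mean as a line. The groups are apart for the first 4 pairs, furthest for Krt7 minus Krt19 (-1.73 against -3.55), and they overlap for Cldn6 minus Cldn7 and Epcam minus Cldn7.

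The claudins split in the same way, with 3 called higher and Cldn3 not called. Cldn4, a claudin that seals many simple epithelia, read -0.43, 0.23, -0.02 and -0.31 in control and 1.18, 0.70, 1.29 and 1.42 in knockdown with its brighter probe. It rose 2.43-fold (change 1.28, SE 0.19, limma adjusted p = 0.000573). Its second probe, A_51_P356467, from another stretch of the same transcript (chr5:135421347-135421406, mm9), changed by 1.35 (SE 0.19, limma adjusted p = 0.000401 over all probes). Control 2 was the highest control array and knockdown 2 the lowest knockdown array on both probes, and the groups still did not overlap.

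Cldn6, a claudin of embryonic epithelia that is common in pluripotent cells, read 1.34, 1.29, 0.84 and 1.26 in control and 2.13, 2.36, 2.22 and 2.28 in knockdown (probe at chr17:23819027-23819086, mm9). It rose 2.09-fold (change 1.06, SE 0.12, limma adjusted p = 0.000107). Cldn7, found along the whole lateral membrane of epithelial cells and not only in tight junctions, read 2.66, 2.72, 2.81 and 2.69 in control and 3.63, 3.45, 3.38 and 3.51 in knockdown (probe at chr11:69781255-69781314, mm9). It rose 1.70-fold (change 0.77, SE 0.07, limma adjusted p = 3.65e-05). Neither gene overlapped between the groups, and the shift of Cldn6 minus Cldn7 (0.29) did not pass the exact permutation test (p = 0.114, adjusted p = 0.137 over the 6 pairs). Its size rested on few arrays, at 0.15 without control 3 and 0.57 on slide 2 alone.

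Cldn3, another sealing claudin and the chromosomal neighbour of Cldn4, read 1.19, 1.18, 1.55 and 1.38 in control and 1.60, 1.65, 1.41 and 1.31 in knockdown, with overlap (probe at chr5:135463284-135463342, mm9). Its change of 0.17 did not pass (SE 0.11, limma adjusted p = 0.256, 95% interval -0.10 to 0.43), and it was -0.01 when arrays were scaled by their median. Cldn4 gained 2.17-fold over Cldn3 within arrays. The groups did not overlap in the Cldn3 minus Cldn4 difference (between 0.95 and 1.69 in control, between -0.10 and 0.94 in knockdown). The nearest arrays almost touched, and the exact permutation p was 0.0286. That p was 0.0571 with the authors' deposited log2 values, with normexp background correction and without any of control 1, 2 or 4 or knockdown 1, 3 or 4.

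Epcam, the adhesion protein that partners claudin-7, had the weakest call. Its single probe spans 829 bases of mm9 (chr17:88048972-88049800), more than its own 60 bases, so it joins separate stretches of the genome. It read 0.80, 0.67, 0.04 and 0.93 in control and 0.98, 1.31, 1.36 and 1.22 in knockdown. All knockdown arrays lay above all control arrays, though control 4 and knockdown 1 were close. The change was 0.61 (SE 0.19, 1.52-fold, limma adjusted p = 0.0258). Control 3 was low, and without it the change was 0.42 (limma adjusted p = 0.0162). Without knockdown 2, 3 or 4 the call was lost (limma adjusted p = 0.0629, 0.0667 and 0.0537), as it was with the knockdown arrays of the same file number averaged (limma adjusted p = 0.0972). The shift of Epcam minus Cldn7 (-0.16) did not pass the exact permutation test (p = 0.543). Its size and sign were not settled, since leaving out single arrays gave -0.38 (without control 3) to -0.04 (without knockdown 1), with -0.08 without control 1 and -0.05 without control 4, and slide 2 alone gave 0.18.

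Grhl2, the transcription factor of the set, differed between its probes. Probe A_55_P1981322 (chr15:37293139-37293198, mm9) read 0.45, 0.49, 0.45 and 0.39 in control and 0.90, 0.90, 0.78 and 0.86 in knockdown. This is a small change with tight replicates, 0.42 (SE 0.06, 1.34-fold, limma adjusted p = 0.000378). The dimmer probe A_51_P408821 read between -2.83 and -2.06 in control and between -2.39 and -1.96 in knockdown, with processed intensities of 94.5 to 145. Its change of 0.21 (SE 0.18, limma adjusted p = 0.372 over all probes) did not pass, and its 95% interval, -0.21 to 0.63, contains both 0 and the value of the other probe. It was 0.05 without control 3, 0.05 with quantile normalization, 0.04 with median scaling and near 0 in the authors' deposited log2 values (limma adjusted p = 0.996). When arrays were scaled by their median the change of the brighter probe was 0.25 and was no longer called (limma adjusted p = 0.104).

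**Figure D3:**
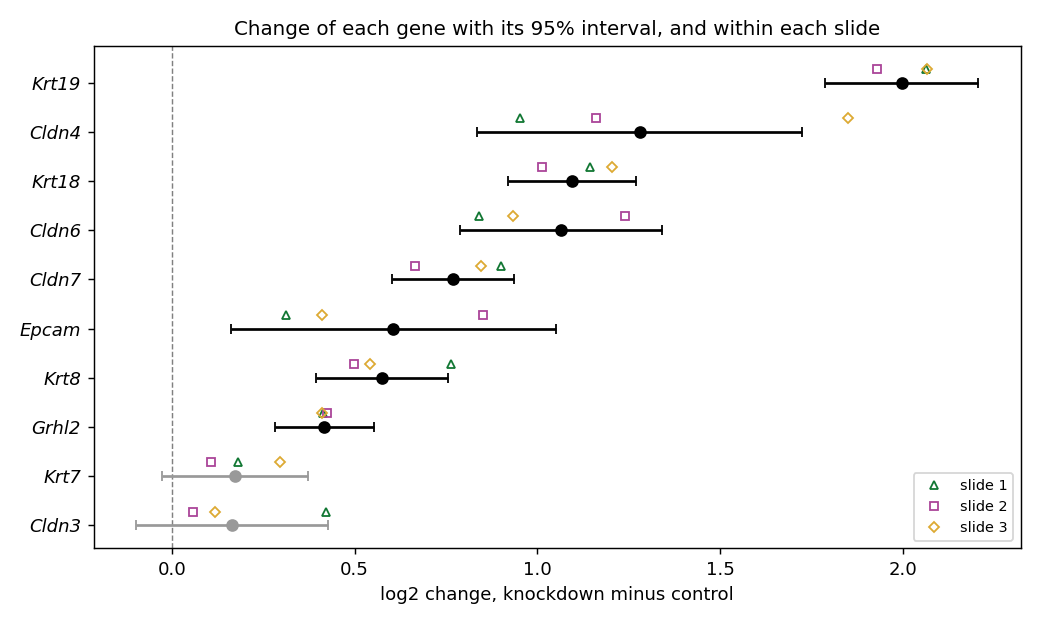
Change of each gene (x axis, log2, knockdown minus control) with its 95% interval, in black where called higher and grey where not called, and the change within each of the 3 slides as open symbols. Krt19 lies alone at 2.00 with an interval from 1.79 to 2.21, above that of Cldn4 (0.83 to 1.72), and the intervals of Krt7 and Cldn3 include 0.

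Ordered by change, the set runs Krt19, Cldn4, Krt18, Cldn6, Cldn7, Epcam, Krt8, Grhl2, Krt7 and Cldn3. Only the step from Krt19 to Cldn4 separates the 95% intervals of neighbours in that order. The share of all genes that rose by more was 6.83% for Cldn4, 9.06% for Krt18, 9.45% for Cldn6, 14.9% for Cldn7, 19.2% for Epcam, 20.1% for Krt8 and 26.3% for Grhl2. Krt7 and Cldn3 stood near the middle of all genes, at 40.8% and 41.3%.

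The arrays lay on 3 slides, each with both groups (1 control and 1 knockdown array on slides 1 and 3, and 2 of each on slide 2). The median change of the 10 genes was 0.80, 0.76 and 0.69 on slides 1, 2 and 3, where that of all genes was 0.10, 0.03 and -0.02. Krt7 and Cldn3, which were not called, changed by 0.11 and 0.06 on slide 2. Krt19 changed by 2.06, 1.93 and 2.06 on slides 1, 2 and 3, Krt18 by 1.14, 1.01 and 1.20, and Cldn7 by 0.90, 0.67 and 0.85. Cldn4 varied more, at 0.95, 1.16 and 1.85, and so did Epcam, at 0.31, 0.85 and 0.41. With slide as a block the same number of genes of the set, 8, was called higher. In that fit 13171 of all genes were called, 51% of them higher.

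The genes lie in clusters that the choice of members did not use. In the RefSeq order of protein-coding genes on chromosome 15 Krt8 and Krt18 are direct neighbours, and on chromosome 5 so are Cldn4 and Cldn3. The first pair rose together and the second did not. On chromosome 17, Cldn9 follows Cldn6 and rose as well (change 0.74, limma adjusted p = 0.000116). Tnfrsf12a, a cytokine receptor on the other side of Cldn6, rose 5.48-fold. On chromosome 11, Krt15 next to Krt19 rose 2.60-fold (limma adjusted p = 0.000433), whereas Slc2a4 and Elp5, on either side of Cldn7, fell by 0.55 and 0.35 while Cldn7 rose. Ncald, next to Grhl2, was above background on all 4 control arrays and on no knockdown array, at least 3.33-fold lower (limma adjusted p = 1.35e-05). Eif4b, beside Krt18, rose by 0.79, and Calm2, beside Epcam, rose by 0.25. Among other neighbours, Krt80, beside Krt7, was not called (change -0.05, limma adjusted p = 0.889), and neither was Mettl27, beside Cldn4 (change 0.22, limma adjusted p = 0.0509). Abhd11, beside Cldn3, rose by 0.33.

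Promoter windows of RefSeq (build GRCm38.p6, 250 bases before to 50 after the annotated start) were found for 8 of the 10 genes, 9 windows in all. They were searched on both strands for the grainyhead motif AACCGGTT and the AP-2 motif GCCNNNGGC, each its own reverse complement and without overlap between the motifs. The grainyhead letters were in none of the 9 windows and in 0.146% of all 32851 windows. The AP-2 letters were in 3 of the 9, those of Krt7, Krt18 and Cldn3, and in 16.6% of all windows. The 250 bases upstream of Krt18, Krt8 and Krt7 are shown to set the neighbouring pair that rose beside the keratin that was not called, with the AP-2 letters in capitals. Krt18 holds them 83 bases before the start, Krt7 146 and 70 bases before it and Krt8 has none in this window. The windows are chr15:102027966-102028215 (plus) for Krt18, chr15:102004343-102004592 (minus) for Krt8 and chr15:101412153-101412402 (plus) for Krt7.
Krt18: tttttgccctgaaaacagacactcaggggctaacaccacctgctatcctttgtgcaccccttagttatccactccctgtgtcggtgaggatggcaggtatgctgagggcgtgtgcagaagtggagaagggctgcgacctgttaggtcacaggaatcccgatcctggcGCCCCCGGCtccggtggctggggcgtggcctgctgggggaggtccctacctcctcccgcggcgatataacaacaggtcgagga
Krt8: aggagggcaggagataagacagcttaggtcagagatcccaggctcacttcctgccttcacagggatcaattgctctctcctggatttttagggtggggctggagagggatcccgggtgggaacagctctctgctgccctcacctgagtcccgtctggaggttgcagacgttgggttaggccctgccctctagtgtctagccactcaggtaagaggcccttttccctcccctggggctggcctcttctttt
Krt7: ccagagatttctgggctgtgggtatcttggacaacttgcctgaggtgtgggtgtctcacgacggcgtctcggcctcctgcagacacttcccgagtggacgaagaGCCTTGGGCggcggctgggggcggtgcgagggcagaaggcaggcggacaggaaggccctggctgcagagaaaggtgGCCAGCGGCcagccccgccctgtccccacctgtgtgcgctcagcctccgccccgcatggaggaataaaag

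Other genes of epithelial junctions and filaments, and intermediate filaments other than keratins, were read from 7 further lists. Together these lists held 71 tested genes, of which 35 were called higher and 17 lower. Their median change was 0.33, against 0.04 over all genes. The 71 include 9 intermediate filament genes other than keratins, with 3 higher, 4 lower and a median change of 0.06. Beside this count and that of each list, 29.3% of all genes were called higher and 28.7% lower. The tight junction list, of scaffold and polarity proteins, had 7 of 12 tested genes higher and 3 lower. The cytoplasmic linker cingulin, Cgn, rose by 0.67 (limma adjusted p = 0.000452) and the polarity protein gene Pard6b by 1.76 (limma adjusted p = 1.61e-05). The polarity gene Pard3 fell by 0.63, with 3 of its 4 probes called lower and the fourth changing by 0.08. Occludin, Ocln, named after its values were seen, did not pass (0.73, limma adjusted p = 0.0818) and was above background on 3 of the 4 control arrays.

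The other claudins did not move one way. Of 16 on the list 6 were tested, 3 of them higher and 3 lower. Cldn9 and Cldn23 rose by 0.74 and 1.07, and Cldn5, the claudin of endothelium, and Cldn10 fell by 1.54 and 1.61 (limma adjusted p = 9.94e-05 and 0.000296). The other 10, among them Cldn1, Cldn2 and Cldn18, were too dim to be tested.

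Of 10 other keratins tested, 5 were higher and 1 lower. Krt20, a keratin of gut epithelium, rose 2.64-fold (limma adjusted p = 1.05e-06) and Krt5, the type II keratin of basal cells, rose 2.38-fold with 1 of its 2 probes called. Krt42 rose 3.52-fold, and Krt17 rose too (limma adjusted p = 3.69e-06) but only 2 control arrays had it above background, and its fold is therefore left out. Krt17 and Krt42 belong to a group of closely similar type I genes, so their probes cannot be assigned to them with certainty. Krt14, the usual partner of Krt5, was not called (0.13, limma adjusted p = 0.760).

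Desmosome genes, whose plaques anchor keratins at the membrane, numbered 10 tested, with 5 called higher and 1 lower. Desmoplakin, Dsp, rose 1.65-fold, with both of its probes called, and the plakophilin gene Pkp2 rose 1.86-fold. Perp, a desmosomal membrane protein, rose 2.17-fold. Pkp1 was above background on no control array and on all 4 knockdown arrays, at least 2.76-fold higher (limma adjusted p = 1.50e-06, a p that uses the dim signals as they are).

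Of 12 epithelial regulators 6 were higher and 3 lower. The splicing factor gene Esrp1 rose 3.47-fold (change 1.80, limma adjusted p = 6.21e-07) with its brighter probe. Its other tested probe changed by 1.03 (limma adjusted p = 0.000128 over all probes). Klf5 rose 2.51-fold (limma adjusted p = 1.63e-05), and Tfap2c, an AP-2 factor, fell 1.85-fold. The relatives of Grhl2, named after their values were seen, went opposite ways, with Grhl1 changing by 0.54 (limma adjusted p = 0.000240) and Grhl3 by -0.81 (limma adjusted p = 0.000107). Of 12 surface and trafficking genes 6 were higher and 2 lower. E-cadherin, Cdh1, rose 1.79-fold, the epithelial adaptor subunit Ap1m2 1.98-fold and the integrin chain Itga6 1.35-fold, while Lsr, a protein of tricellular junctions, fell by 0.53.

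The other intermediate filaments, set beside the keratins, were mixed, with 3 of 9 tested genes higher and 4 lower. Vimentin, Vim, the filament of neural progenitors and mesenchyme, fell from 4.87 ± 0.13 to 2.92 ± 0.15 (3.84-fold, limma adjusted p = 1.49e-06). In the opposite direction the peripheral neuron filament peripherin, Prph, rose 10.7-fold, lamin A/C, Lmna, 4.84-fold and the muscle filament desmin, Des, 4.49-fold. Nes, the filament for which neural progenitors are best known, fell by 0.98 and Ina by 1.43, both named after their values were seen.

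**Figure D4:**
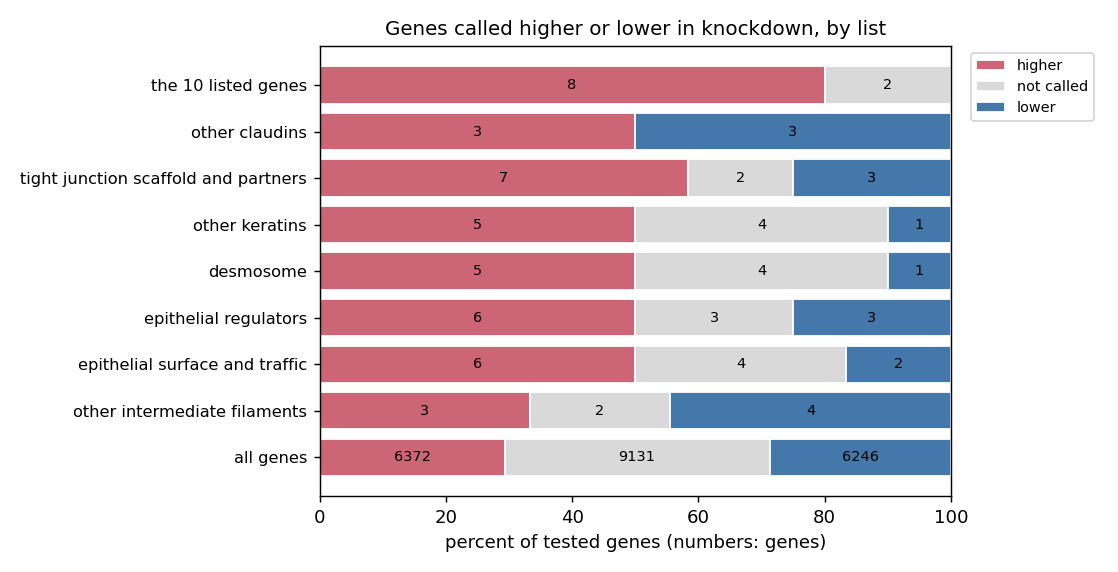
Share of tested genes (x axis, percent) called higher (red), not called (grey) or lower (blue) for the 10 listed genes, 7 further lists and all 21749 genes, with the number of genes in each bar. The 10 genes have 8 higher and none lower, and the other claudins are split with 3 each way.

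Markers of other cell types that could carry these epithelial transcripts moved too. In bulk RNA a larger share of a cell type and more RNA per cell cannot be told apart. Markers of the labelled type were lower in knockdown, where 8 of 9 neural progenitor markers fell and none rose. Their summed signal, in multiples of the 75th percentile of the array, was 99.6 to 110 in control and 24.4 to 25.9 in knockdown. Such a sum is carried by its brightest probes, so it does not measure the amount of a cell type. Extra-embryonic endoderm markers went the other way. All 11 tested of 12 were higher, with a summed signal of 2.65 to 3.07 in control and 12.1 to 13.3 in knockdown, and Apoa1 was above background on no array. Of 6 trophectoderm markers tested 3 were higher and 2, Cdx2 and Tfap2c, lower, with summed signals of 14.5 to 15.9 and 13.9 to 14.3. Tfap2c carried most of that sum in control, at a mean log2 level of 3.38. Hand1, on that list, was above background on no array.

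For surface ectoderm 2 of 6 tested markers, Krt5 and Krt15, were higher and 2, Tfap2a and Grhl3, lower, with summed signals of 8.54 to 10.4 and 9.30 to 10.7. Trp63, which was not called, carried most of that sum in both groups (mean log2 level 2.69 in control and 2.86 in knockdown). The mesothelium markers Wt1 and Msln were higher and Lrrn4 lower, of 3 tested, with summed signals of 1.66 to 1.87 and 6.42 to 6.76, and Upk1b was above background on no array. Of 5 tested fibroblast or feeder markers 3 were higher, with summed signals of 3.44 to 3.47 and 6.73 to 7.35, and Postn was above background on no array. Of 6 markers of undifferentiated embryonic stem cells 2, Klf4 and Tdgf1, were higher and 3 lower, with summed signals of 53.9 to 59.6 and 20.3 to 22.4. The part of any of these cell types in the keratin and claudin changes was not tested.

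The genes whose levels followed Krt8 most closely over the 8 arrays were Acadl, Bcl3, Apoa2, Sik2 and Triobp, with Pearson correlations of 0.998 to 0.999. The arrays fall into 2 groups, so such a value mostly reflects the difference between them. Krt18 stood at rank 1280 of 21737 genes (r = 0.966), behind Cldn7 at rank 496 (r = 0.980), and Epcam was the lowest of the set at 0.589. None of the 5 closest genes is a keratin or claudin.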

How the data were processed

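Total RNA of 8 samples was profiled on single-colour Agilent arrays (4 control, 4 knockdown). Per the labels' protocols, 100 ng of RNA was amplified from an oligo-dT primer and labelled with Cy3. Per the file headers, the authors deposited spot intensity made with Agilent Feature Extraction 10.7.3.1, with background and spatial trend removed per array and no scaling across arrays. The authors' deposited log2 value table shares a single distribution over its columns. How it was made is not given in the sources used here, and it served as an alternative.

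Spots flagged as outliers were removed (none belonged to the 13 probes), spots of a probe were averaged, and each array was centred, after log2, on its 75th percentile. A probe was tested if every array of either group had it well above background, with its spots counted above when over 50% were. The brightest of a gene's tested probes stood for it. Of 55681 probes 29090 were tested, for 21749 genes, and a second fit took all tested probes. Both used limma 3.58.1 in R 4.3.3 (its moderated linear model, with Benjamini-Hochberg adjustment over all genes or probes), tested on simulated data. Partner differences used an exact two-sided permutation test. The members and lists were chosen with earlier results of these data known. The text names all members, up to 4 called genes per list with the smallest p, chromosomal neighbours, the 5 genes closest to Krt8 and exceptions named as such. A fold given as "at least" compares the brighter group with, on each dim array, the probe's signal or the lowest signal above background, whichever is higher. Alternatives covered normalization, background, filters, probe choice, blocks, averaging and each array left out; the arrays of slide 2 alone were added after the data were seen. The depth of an array is its signal over background, and the number of arrays limits the precision. No protein sequence was used here, and probe names and positions are those supplied with the arrays, with names updated through RefSeq. Some genes that this rule names are not reported here.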

Additional observations from a re-analysis of the deposited data

Results flagged for a closer look

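Among 26 groups of 4 arrays (13 probes in control and knockdown), 3 held an array that stood far from the other 3 in its group by Dixon's test at the 95% level, where chance flags about 1 in 20. On the Cldn4 probe A_51_P356467, control 2 read 0.41 with the next control array at -0.32, and knockdown 2 read 0.92 with the next knockdown array at 1.24. Without control 2 the change of that probe was 1.55. On the Cldn6 probe, control 3 read 0.84 with the next control array at 1.26. Without it the change of Cldn6 was 0.95, and Cldn6 was called higher in both cases.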

How the results depend on the processing

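Over 21 alternatives the number of listed genes called higher was 7 to 9 and none was called lower (7 to 8 with each array left out). All genes called numbered 12618, and 9180 to 13171 over the alternatives (11795 to 12547 with each array left out). Krt8, Krt18, Krt19, Cldn4, Cldn6 and Cldn7 were called higher under all 21, Krt19 with changes of 1.83 to 2.11. Scaling by the median moved the all-gene median from 0.04 to -0.13, the higher share among called genes from 50.5% to 37.3% and the median of the 10 genes from 0.69 to 0.52. It ended the call of Grhl2 and of the second Krt8 probe (0.28, limma adjusted p = 0.165). The Epcam call also ended with no filter on dim probes (limma adjusted p = 0.0554) and on slide 2 alone (limma adjusted p = 0.111); the cause was not tested. Control and knockdown arrays of the same replicate number had deviations correlated at 0.12, -0.12, 0.13 and -0.20. Values this small and mixed cannot show whether the numbers pair the samples. For control and knockdown arrays on the same slide the correlations were 0.13 to 0.33. With a replicate block 11411 genes were called, 7 of the listed genes were called and Epcam was not (0.61, limma adjusted p = 0.0563). For partner differences, permutation within slides or within replicate numbers, or with knockdown pairs averaged, cannot go below 0.0833, 0.125 and 0.0667. They were not computed with the random block.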
